A study of Mus musculus with 16 samples.

Results

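The genomic spread of trimethylated histone H3 lysine 27 (H3K27me3) was compared between endoderm and mesoderm made from arid4b-delta stem cells. The comparison takes the broad peaks deposited for this mark in the 2 arid4b-delta lineages, 16660 peaks in endoderm and 9863 in mesoderm, or 26523 of the 224510 peaks in all 12 lists of the series. The question the design implies is which promoters, peaks and stretches of genome carried the mark in one lineage and not in the other, first in the lists as deposited and then with both lists at 9863 peaks.

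The cells were CJ9, a mouse embryonic stem cell line. Both groups carried the genotype labelled arid4b-delta, were directed for 5 days to endoderm or to mesoderm, and were fixed for 8 min with formaldehyde before chromatin immunoprecipitation and sequencing. WT cells were directed to both lineages in the same way, and H3K4me3 and H3K27ac were profiled beside H3K27me3 in every group. Neither the extent of the Arid4b deletion nor whether the line is a single clone is given in the labels. Each lineage was 1 library, so no difference was tested, no p-value is given, and the spread between cultures is unknown. A peak list holds no read totals, so the depth of each library is unknown as well.

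H3K27me3 is written by Polycomb repressive complex 2, whose catalytic subunit is Ezh2, and it marks genes that are held silent. In embryonic stem cells it covers CpG-rich promoters of developmental regulators, often together with H3K4me3, a mark of active and poised promoters, and such promoters are called bivalent. Genes that a lineage uses usually lose the mark as that lineage forms, and H3K27ac, found at active promoters and enhancers, cannot sit on the same residue. Arid4b is a subunit of the Sin3-HDAC complex, which removes acetyl groups from histones.

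Marked promoters were those with at least 1 bp of a peak inside a window of 1000 bp on each side of the gene start, over 21887 protein-coding genes. The starts below belong to promoters marked in endoderm only (Dock1, a guanine nucleotide exchange factor for Rac, and Rab15, a small GTPase of endosomes), in mesoderm only (Dusp14, a protein phosphatase, and Nkain1, a membrane protein) and in both (T, the streak and mesoderm factor Brachyury). They are examples and do not stand for their classes. Each line has 250 bases before to 50 after the start in RefSeq build GRCm38.p6, read 5′ to 3′ on the gene's strand, with every CG in capitals. The first 4 were chosen after their values were seen, as peaks that contain the whole sequence, and these peaks are longer than most of their classes.
Dock1, chr7:134670437-134670736, plus strand: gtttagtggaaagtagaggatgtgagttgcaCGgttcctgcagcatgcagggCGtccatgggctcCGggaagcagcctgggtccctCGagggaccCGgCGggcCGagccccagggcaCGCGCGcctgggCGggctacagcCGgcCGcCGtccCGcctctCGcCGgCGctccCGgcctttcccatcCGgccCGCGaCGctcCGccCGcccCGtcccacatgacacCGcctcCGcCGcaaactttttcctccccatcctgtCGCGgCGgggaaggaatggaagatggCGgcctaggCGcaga
Rab15, chr12:76822475-76822774, minus strand: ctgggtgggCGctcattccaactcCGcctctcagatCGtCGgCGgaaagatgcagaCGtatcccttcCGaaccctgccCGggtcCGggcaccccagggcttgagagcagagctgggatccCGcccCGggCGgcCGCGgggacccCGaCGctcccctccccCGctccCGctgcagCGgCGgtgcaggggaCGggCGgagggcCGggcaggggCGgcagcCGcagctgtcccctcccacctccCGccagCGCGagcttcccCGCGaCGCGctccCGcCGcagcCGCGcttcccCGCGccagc
Dusp14, chr11:84068308-84068607, minus strand: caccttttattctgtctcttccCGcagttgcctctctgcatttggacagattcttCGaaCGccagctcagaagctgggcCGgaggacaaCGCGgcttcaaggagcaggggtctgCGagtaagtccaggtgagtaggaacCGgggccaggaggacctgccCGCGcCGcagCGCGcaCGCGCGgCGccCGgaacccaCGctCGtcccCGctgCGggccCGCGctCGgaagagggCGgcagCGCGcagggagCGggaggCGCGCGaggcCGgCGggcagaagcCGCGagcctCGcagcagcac
Nkain1, chr4:130573987-130574286, minus strand: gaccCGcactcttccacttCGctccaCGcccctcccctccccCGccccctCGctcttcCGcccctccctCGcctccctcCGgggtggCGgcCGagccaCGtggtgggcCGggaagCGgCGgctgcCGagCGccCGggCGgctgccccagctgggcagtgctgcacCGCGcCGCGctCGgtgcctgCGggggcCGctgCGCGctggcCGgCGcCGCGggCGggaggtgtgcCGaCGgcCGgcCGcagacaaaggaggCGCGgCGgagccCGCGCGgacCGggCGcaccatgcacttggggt
T, chr17:8434173-8434472, plus strand: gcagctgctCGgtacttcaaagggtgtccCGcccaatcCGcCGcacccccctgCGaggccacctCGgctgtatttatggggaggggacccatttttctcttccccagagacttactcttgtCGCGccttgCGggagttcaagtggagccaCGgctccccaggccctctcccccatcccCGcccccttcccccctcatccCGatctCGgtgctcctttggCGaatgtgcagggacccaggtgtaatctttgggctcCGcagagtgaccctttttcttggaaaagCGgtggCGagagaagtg

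The motif searched was CG, which reads the same on both strands. It occurred 34 times at Dock1 and 38 times at Rab15, 37 times at Dusp14 and 44 times at Nkain1, and 17 times at T. Of the 17492 promoters of this length in the RefSeq table, 94.8% held at least 1 CG and the median promoter held 13.0. As many as at T were found in 43.1% of them, and as many as at Nkain1 in 2.74%. All 5 printed starts thus held more CG than the median promoter of the table. The endoderm peaks over Dock1 and Rab15 were 1746 and 1403 bp long with a fold enrichment of 3.11 and 4.26, and the mesoderm peaks over Dusp14 and Nkain1 were 2002 and 1762 bp long with 1.56 and 1.73, while the median peak was 508 bp in the endoderm-only class and 478 bp in the mesoderm-only class. Fold enrichment is the authors' value for a peak over its background, and it describes and ranks peaks only within its own list. The table held sequence for 79.1% of the promoters in endoderm only, 77.0% of those in mesoderm only and 73.9% of those in both. These shares are under 80%, so a comparison of CpG content between the classes is void and none is given.

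Arid4b itself (gene 94246, chromosome 13, 14063609 to 14199603) had no H3K27me3 at its promoter in either lineage, and the nearest peak was 121535 bp away in endoderm and 278516 bp away in mesoderm. This does not check the deletion, whose extent is not given.

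The lists differed in number more than in the broad domains they held. The endoderm list covered 21.4 Mb with a median peak of 523 bp, and the mesoderm list 16.9 Mb with a median peak of 652 bp. Peaks of 10 kb or more numbered 237 in endoderm and 221 in mesoderm. Weak peaks were common in both, since 50.9% of endoderm peaks and 41.9% of mesoderm peaks had a -log10 q under 2. Short peaks made up most of the excess in endoderm, with 4563 endoderm and 2211 mesoderm peaks under 300 bp and 7720 and 3840 from there to under 1 kb.

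The start of chromosome 9 stood apart in the mesoderm list. Over its first 31.9 Mb the endoderm list held 112 peaks covering 117 kb, while the mesoderm list held 2 peaks, of 209 and 371 bp. The other marks were present there in both lineages, with 223 H3K4me3 and 389 H3K27ac peaks in endoderm and 226 and 249 in mesoderm. In WT the stretch held 35 H3K27me3 peaks in endoderm and 27 in mesoderm. Of its 211 promoters, 23 were marked in endoderm only and 1, Kank2, in mesoderm only. Without the stretch the promoters in one lineage only numbered 662 in endoderm and 495 in mesoderm, close to the totals of the full lists given below, but 4 of the 5 genes under the longest endoderm-only peaks lie in it. Sox7 and the peak at Gata4 lie in a gap of 1.33 Mb between neighbouring mesoderm peaks of chromosome 14, which held 12 endoderm peaks. Drawn this way, the gap holds no mesoderm peak by construction, and other gaps of this length were not counted. Why these stretches hold few or no mesoderm peaks was not tested.

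The labelled lineages were checked by active marks at listed marker genes, because peak lists do not measure expression. Of 18 definitive endoderm genes, 3 promoters had H3K27ac in the endoderm library (Epcam, Cldn6 and Tcf7l2) and 4 in the mesoderm library, the same 3 and Krt18. None of the 15 cardiac, 15 blood and endothelium and 23 paraxial and intermediate mesoderm genes had promoter H3K27ac in either library. Of 20 general pluripotency genes 8 had it in endoderm and 9 in mesoderm, among them Pou5f1 and Sox2 in both, and of 10 primed epiblast genes 7 and 8 had it. Acetylation of marker promoters therefore did not separate the endoderm from the mesoderm library by their labels. The names of the lineages are used here as labelled.

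Most marked promoters carried H3K27me3 in both lineages. Endoderm had 3632 marked promoters and mesoderm 3443, and 2947 were marked in both. There were 685 promoters in endoderm only, 18.9% of those marked in endoderm (95% interval 17.6 to 20.2), and 496 in mesoderm only, 14.4% of those marked in mesoderm (13.2 to 15.6). They were 3.13 and 2.27 percent of all promoters. Of the 1181 promoters that differed, 58.0% (55.1 to 60.8) were in endoderm only. The intervals are exact Clopper-Pearson intervals and cover counting error only, not the spread between cultures. In bulk chromatin a mark in fewer cells and a weaker mark per cell cannot be told apart.

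**Figure D1:**
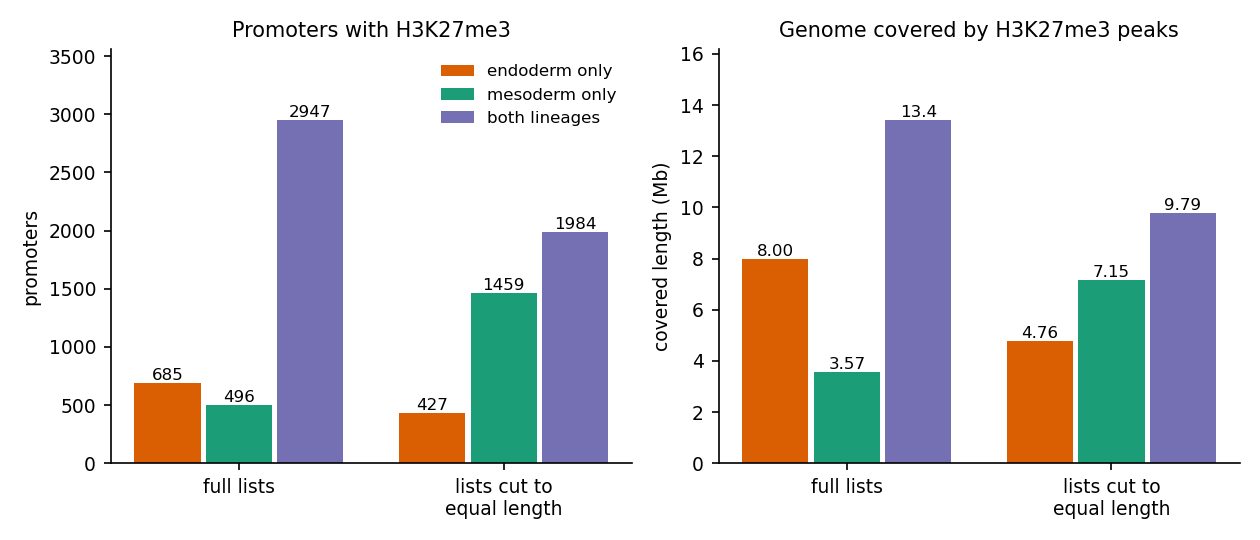
Promoters (left, counts) and genome length (right, Mb) with H3K27me3 in arid4b-delta endoderm only, mesoderm only or both, in the full lists and with the endoderm list cut to the 9863 peaks of the mesoderm list; bars are single libraries without replicates. Endoderm-only promoters exceed mesoderm-only ones in the full lists, 685 against 496, and the order turns at equal length, 427 against 1459. The cut removes endoderm peaks only, so by construction it moves the counts in this direction.

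Cutting the endoderm list to the length of the mesoderm list turned the direction. By construction such a cut cannot raise the endoderm-only count or lower the mesoderm-only count. The endoderm list was cut to its 9863 peaks of highest fold enrichment, with ties broken by -log10 q, and the last peak kept and the first left out both had a fold of 1.869 and a length of 146 bp. The cut list marked 2411 promoters, of which 1984 were shared with mesoderm. Then 427 promoters, 1.95 percent of all, were in endoderm only and 1459, 6.67 percent of all, in mesoderm only. The endoderm share of differing promoters was 22.6% (20.8 to 24.6).

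The turn came from promoters that both full lists mark. Of the 1459 in mesoderm only at equal length, 963 were marked in both full lists and had lost their endoderm peak to the cut, and the other 496 were the mesoderm-only promoters of the full lists. Another 258 endoderm-only promoters dropped out. Broad domains had middling folds. With each list ranked by fold and split into 5 groups of equal size, peaks of 5 kb or more numbered 115, 246, 220, 146 and 36 from the highest to the lowest group in endoderm, and 70, 185, 221, 141 and 35 in mesoderm. Cutting by fold therefore removed broad domains as well as short peaks. T is an example, with an endoderm peak of 10387 bp and fold 1.35 and a mesoderm peak of 10992 bp and fold 1.64. It was marked in both full lists and counted as mesoderm only at equal length.

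Among peaks, 10843 of the endoderm list (65.1%, 64.4 to 65.8) had no overlapping mesoderm peak, and 3817 of the mesoderm list (38.7%, 37.7 to 39.7) had no overlapping endoderm peak. At equal length the shares came close to each other, at 62.6% and 60.6%. In covered length, 8.00 Mb (37.4%) of the endoderm list lay outside the mesoderm list, 3.57 Mb (21.1%) of the mesoderm list lay outside the endoderm list, and 13.4 Mb lay in both. At equal length these were 4.76 Mb (32.7%) in endoderm and 7.15 Mb (42.2%) in mesoderm.

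Peaks in one lineage only were short. Their median length was 394 bp in endoderm and 377 bp in mesoderm, against 1647 and 1445 bp for peaks that overlapped the other list. Under 300 bp, 87.6% of endoderm peaks and 67.7% of mesoderm peaks were in one lineage only, and from 1 kb to under 3 kb 21.4% and 6.74%. From 3 kb to under 10 kb, 13 of 1419 endoderm peaks (0.916%) and 0 of 1262 mesoderm peaks had no partner, where a count of 0 allows a share of up to 0.292%. Of peaks of 10 kb or more, 1 of 237 in endoderm and 0 of 221 in mesoderm had none. That endoderm peak is the one over Tbx20 in the sparse stretch of chromosome 9. Outside that stretch every peak of 10 kb or more in either list overlapped a peak of the other.

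**Figure D2:**
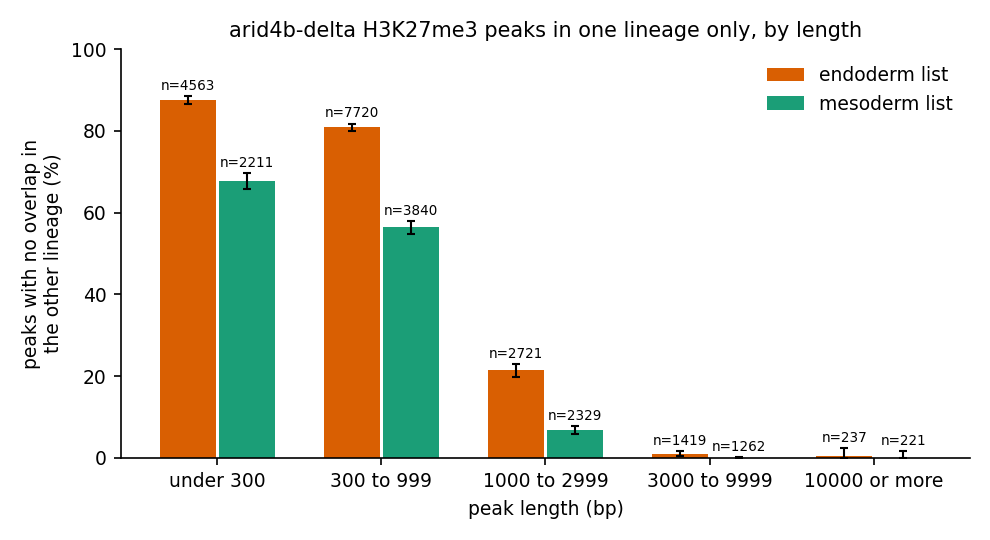
Share of H3K27me3 peaks (percent, with 95% Clopper-Pearson intervals for counting error) that overlap no peak of the other arid4b-delta lineage, by peak length in bp, for the endoderm and mesoderm lists; n is the number of peaks. The share falls with length in both lists, to 1 of 237 endoderm and 0 of 221 mesoderm peaks of 10 kb or more.

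In the full lists the one-lineage peaks of endoderm and mesoderm also differed in where they lay. Of endoderm-only peaks 7.54% were at promoters, 29.4% in gene bodies and 62.4% between genes. Of mesoderm-only peaks 16.1% were at promoters, 35.5% in gene bodies and 48.1% between genes. Peaks that overlapped the other list were at promoters for 48.6% of the endoderm list and 46.5% of the mesoderm list. H3K4me3 of the same lineage lay on 6.67% of endoderm-only and 14.1% of mesoderm-only peaks, and on 56.3% and 57.4% of the overlapping ones. The nearest peak of the other list was a median 65486 bp from an endoderm-only peak and 6045 bp from a mesoderm-only peak, over the main chromosomes. A longer list shortens such distances by construction, so they do not compare the lineages alone. The shares by place and with H3K4me3 were not repeated at equal length. List length and lineage cannot be told apart in them. Overlapping peaks were also longer, and a longer peak meets a promoter window, an H3K4me3 peak or the other list more easily. The shares were not compared at like peak length.

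Near-misses made up part of the differing promoters. A peak of the other lineage lay within 2500 bp of the start for 133 (19.4%) of the endoderm-only and 132 (26.6%) of the mesoderm-only promoters. The peaks that marked them were short, with a median of 508 bp in endoderm and 478 bp in mesoderm, and 49.3% and 41.5% had a -log10 q under 2. At the 2947 shared promoters the median peak was 2586 bp in endoderm and 2372 bp in mesoderm. There 42.4% of the endoderm and 35.8% of the mesoderm peaks had a -log10 q under 2, so weak peaks were common in both classes. Within 5000 bp of these shared starts a median of 3087 bp was covered in endoderm and 2737 bp in mesoderm. More was covered in endoderm at 59.4% of them and in mesoderm at 36.2%.

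Of 377 listed genes, which are mostly developmental regulators and signalling genes, 232 (61.5%) were marked in both, against 13.5% of all promoters. Only 10 (2.65%) were in endoderm only and 8 (2.12%) in mesoderm only, near the shares over all promoters of 3.13 and 2.27 percent given above. At equal length the listed counts were 5 in endoderm only and 56 in mesoderm only, beside 1.95 and 6.67 percent of all promoters. The cut removed endoderm peaks only, so the mesoderm-only count could not fall. Listed genes thus differed between the lineages about as often as all promoters in the full lists, and the direction of their counts turned with list length.

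The Hox genes, which pattern the body axis, were marked at 39 of 39 promoters in both lineages and in both versions of the lists. The whole Hoxa cluster lay under a single peak of 121671 bp in endoderm and 119818 bp in mesoderm, the longest peak of each list. The whole span was covered in both lineages for Hoxa, and the covered share was 76.2% in endoderm and 74.5% in mesoderm for Hoxb, 99.2% and 96.9% for Hoxc, and 95.9% and 95.8% for Hoxd. The clusters looked alike in extent. Outside the Hox clusters, the longest endoderm domains over a promoter lay at Hand2, a heart and limb factor (44193 bp in endoderm, 45437 bp in mesoderm), and at Tbx3 (38206 and 36087 bp).

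Neuroectoderm genes were marked at 24 of 24 promoters in both lineages. Pax6, an eye and neural regulator, had a peak of 28695 bp in endoderm (chr2:105658623-105687317, fold 2.22) and of 29660 bp in mesoderm (chr2:105658517-105688176, fold 2.25). Sox1, a neural progenitor factor, had 24393 and 24848 bp, and Neurog1, a proneural factor, 18528 and 17230 bp. The shortest neuroectoderm peaks were 1019 bp in endoderm, at Neurod1, and 447 bp in mesoderm, at Nes, which encodes the intermediate filament nestin. At equal length 22 of the 24 were marked in both. The other 2, Nes among them, lost their endoderm peak to the cut and counted as mesoderm only.

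Genes of the primitive streak, the source of both lineages, were marked at 14 of 20 promoters in both and at none in one lineage only. Eomes, a T-box factor of the streak, had peaks of 4638 bp in endoderm (fold 2.50) and 4822 bp in mesoderm (fold 5.26). Mesp1, a factor of early cardiac mesoderm, had 4517 bp (3.79) and 3700 bp (1.89), and Mixl1, a homeobox factor of mesendoderm, 3113 bp (1.56) and 2680 bp (2.34). Nodal, the inducer of the streak, and Tbx6, a paraxial mesoderm factor, were unmarked in both. At equal length T, Mixl1, Fgf8, Cdx2 and Cdx4 lost their endoderm peak to the cut and counted as mesoderm only.

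Definitive endoderm genes carried the mark in the endoderm library. Of 18, 9 were marked in both lineages, 2 in endoderm only and none in mesoderm only. Sox17, which specifies definitive endoderm, had a peak of 12222 bp in endoderm (chr1:4487772-4499993, fold 2.54) and of 13120 bp in mesoderm (chr1:4488083-4501202, fold 2.74). Foxa2, a pioneer factor of endoderm, had 17152 bp (3.01) and 16912 bp (3.25), and Gata6 had 16728 bp (1.95) and 16063 bp (2.13). These endoderm regulators thus had domains of like length in both lineages.

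The definitive endoderm genes in endoderm only were Gata4 and Sox7. The Gata4 peak was 146 bp long with a fold of 1.67 and a -log10 q of 0.614, at the lower end of the list, and the nearest mesoderm peak was 19024 bp away. Other endoderm peaks lay near it, with up to 1736 bp covered within 5000 bp of a Gata4 end. The Sox7 peak, over a gene of the Sox17 subgroup, was 5746 bp long with a fold of 1.67, and both peaks lay in the same gap between mesoderm peaks of chromosome 14. Both were unmarked in either lineage at equal length. Sox7 had H3K27me3 in WT endoderm and WT mesoderm (fold 1.99 and 1.45). Of 18 gut, liver and pancreas genes, 13 were marked in both lineages and none in one only, with Pdx1, a pancreas factor, under 13576 bp in endoderm and 1785 bp in mesoderm.

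Mesoderm genes carried the mark in the mesoderm library as well. Paraxial and intermediate mesoderm genes were marked in both at 19 of 23 promoters, cardiac genes at 11 of 15, and blood and endothelium genes at 9 of 15. Foxc1, a factor of paraxial mesoderm, had a peak of 15165 bp in endoderm (fold 2.12) and 16550 bp in mesoderm (fold 2.17). Kdr, the VEGF receptor of blood and vessel precursors, had 4125 bp (2.24) and 3588 bp (4.13). Nkx2-5, a heart factor, had 19180 and 17700 bp. None of these lists had a promoter in mesoderm only in the full lists.

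The cardiac factors Tbx5 and Tbx20 were in endoderm only, 13.3% of the cardiac list beside 3.13% of all promoters. The endoderm peak that marked Tbx5 was 882 bp long with a fold of 2.67, and a mesoderm peak lay 1214 bp from a gene end. Within 5000 bp of a Tbx5 end up to 1742 bp were covered in endoderm and up to 2204 bp in mesoderm. Both ends of Tbx5 were taken as starts, so these values may belong to different ends. Tbx5 may thus be a near-miss of the window. Tbx20 lay under a peak of 15441 bp (fold 1.75) in the sparse stretch of chromosome 9, and it was unmarked in WT endoderm and marked in WT mesoderm. At equal length Tbx20 was unmarked and Tbx5 stayed in endoderm only.

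**Figure D3:**
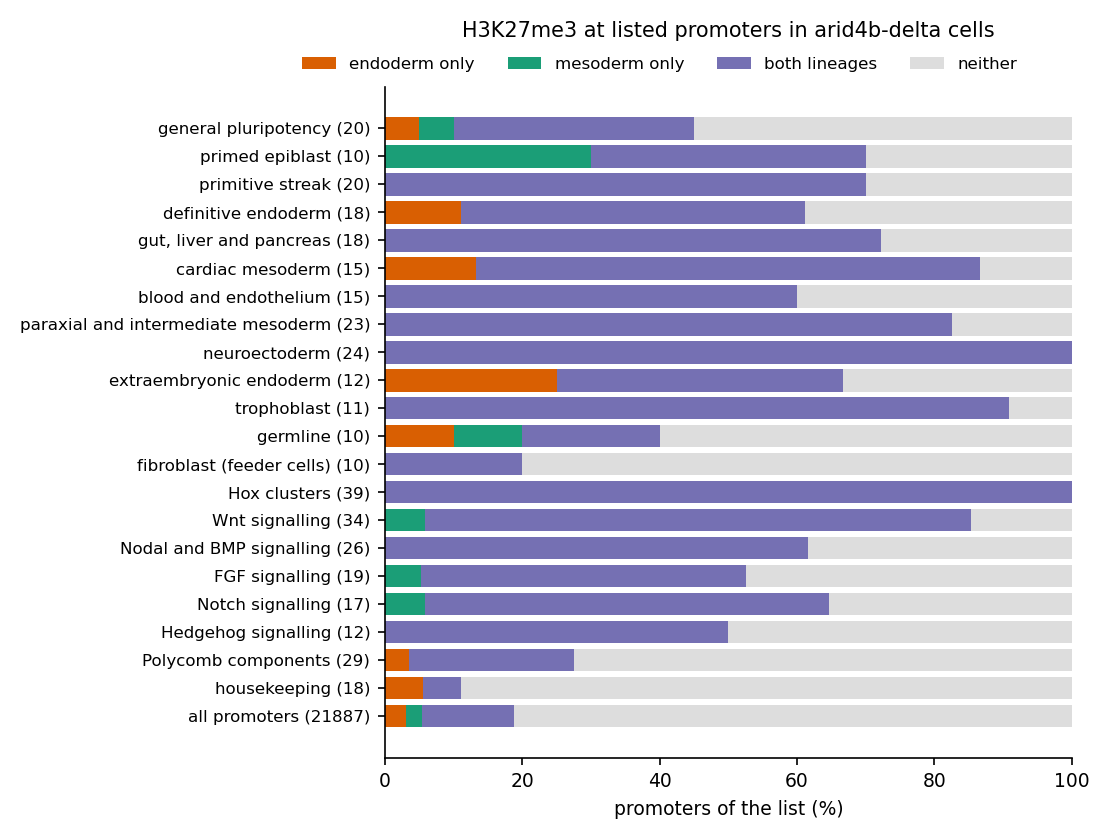
Share of promoters of each gene list (percent, number of genes in brackets) with H3K27me3 in arid4b-delta endoderm only, mesoderm only, both or neither, in the full lists, with all promoters at the bottom. Hox and neuroectoderm promoters are marked in both lineages throughout, 39 of 39 and 24 of 24, and no list has more than 3 genes in one given lineage only.

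General pluripotency genes were unmarked in both lineages at 11 of 20 promoters. Of the 20, 7 (35.0%) were marked in both lineages, against 13.5% of all promoters, 1 in endoderm only and 1 in mesoderm only. Nanog and Pou5f1, core factors of stem cell identity, were marked in neither. Sox2, the third core factor, had an endoderm peak of 1379 bp with a fold of 1.52 and a -log10 q of 0.599, and the nearest mesoderm peak was 6038 bp away. Lin28a, an RNA-binding protein that blocks let-7, had a mesoderm peak of 222 bp (fold 2.14) and no endoderm peak within 31460 bp. The Sox2 and Lin28a promoters carried H3K27ac in both lineages, with folds of 8.05 in endoderm and 9.60 in mesoderm at Sox2 and 5.51 and 13.9 at Lin28a.

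Of 10 primed epiblast genes, 4 were marked in both, 3 in mesoderm only and none in endoderm only. The 3 were Otx2, an anterior epiblast factor (502 bp, fold 1.34, -log10 q 0.622), Sox3 (424 bp, 1.94, 1.05) and Fgf15, a secreted growth factor (666 bp, 3.51, 5.25). All 3 peaks were short, and an endoderm peak lay 2755 bp from Otx2. Fgf15 had H3K27me3 in WT endoderm and WT mesoderm (fold 4.28 and 2.75), and so did Sox3 (1.94 in each). H3K27ac was present at Otx2 and Fgf15 in both arid4b-delta lineages, and at Sox3 in mesoderm alone, where the H3K27me3 peak was.

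The few signalling promoters in one lineage only were all in mesoderm only. They made up 5.88% of Wnt, 5.88% of Notch and 5.26% of FGF genes, against 2.27% of all promoters. Each of these shares rests on 1 or 2 genes. Wnt genes were marked in both lineages at 27 of 34 promoters and in mesoderm only at 2, Fzd8, a Wnt receptor (242 bp, fold 4.77, with an endoderm peak 1574 bp away), and Sfrp2, a secreted Wnt inhibitor (477 bp, 2.33). Notch genes were marked in both at 10 of 17 and in mesoderm only at Nrarp, a feedback inhibitor of Notch (878 bp). FGF genes were marked in both at 9 of 19 and in mesoderm only at Fgf15. Nodal and BMP genes at 16 of 26 and Hedgehog genes at 6 of 12 were marked in both and in one lineage at none. At equal length 9 Wnt, 7 FGF, 6 Nodal and BMP, 2 Notch and 1 Hedgehog genes were in mesoderm only. That class then held 6.67% of all promoters. Of its 1459 promoters, 963 were marked in both full lists and had lost their endoderm peak to the cut.

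Genes of other cell types, of Polycomb and of housekeeping were counted in the same way. The shares over all promoters were 13.5% in both, 3.13% in endoderm only and 2.27% in mesoderm only. Of 12 extraembryonic endoderm genes 5 were marked in both and 3 in endoderm only: Sox7, Thbd, or thrombomodulin (146 bp, fold 3.59, with a mesoderm peak 1070 bp away), and Lamb1, a laminin chain of basement membranes (647 bp, 1.88). The 146 bp peak is the one of highest fold at Thbd, and another endoderm peak reached a gene end. Within 5000 bp of a Thbd end up to 2781 bp were covered in endoderm and up to 677 bp in mesoderm. Trophoblast genes were marked in both at 10 of 11, germline genes at 2 of 10 with Tdrd1 in endoderm only and Nanos3 in mesoderm only, and fibroblast genes at 2 of 10. Of 29 Polycomb components 7 were marked in both, with the longest domains at Cbx8 (31266 bp in endoderm, 11677 bp in mesoderm) and Bmi1 (24822 and 28556 bp), and Phc2 was in endoderm only (372 bp, 6.18). Of 18 housekeeping genes B2m was marked in both and Polr2a, the largest subunit of RNA polymerase II, in endoderm only (172 bp, fold 4.09). The Polr2a promoter carried H3K27ac in both lineages.

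At promoters marked in both lineages the extent of the mark was compared by covered length. Of the 232 listed ones, 86 had more covered bp within 5000 bp in endoderm, 75 had more in mesoderm and 71 had the same. Of the 71, 34 were Hox and 12 neuroectoderm promoters, lists whose median cover was the whole 10001 bp of the window in both lineages. Over all 2947 shared promoters 130 had the same cover. The median cover of the 232 listed promoters was 7940 bp in endoderm and 7786 bp in mesoderm, against 3087 and 2737 bp over all shared promoters. Genes farthest from equality, chosen after their values were seen, were Fgfr2, an FGF receptor (4666 bp in endoderm, 2073 bp in mesoderm), and Sox9 (7835 and 5304 bp) on the endoderm side. On the mesoderm side they were Prox1 (4766 bp in endoderm, 8002 bp in mesoderm) and the neighbours Wnt3 (1885 and 4281 bp) and Wnt9b (1676 and 4099 bp), which share their peaks. Dkk1, a Wnt inhibitor, had a 3737 bp peak in endoderm and a 210 bp peak in mesoderm, yet 3737 and 3031 bp were covered within 5000 bp, so its mesoderm domain was split into several peaks.

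**Figure D4:**
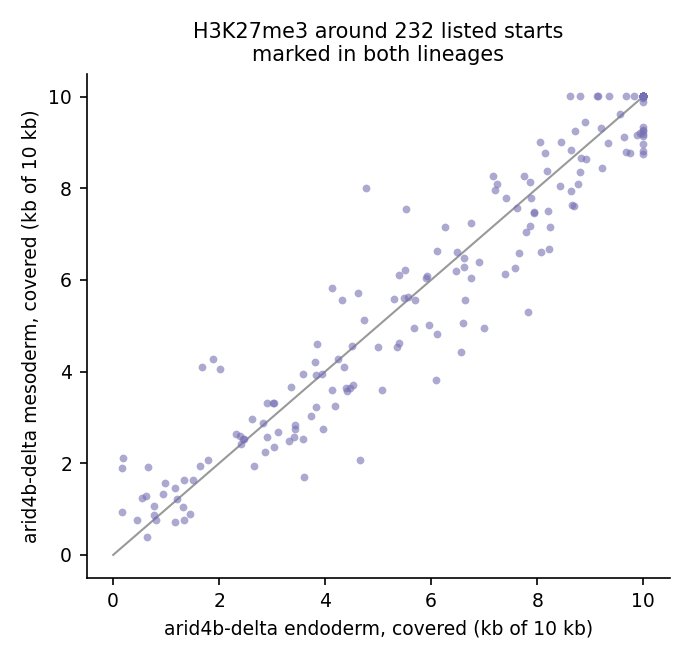
Length covered by H3K27me3 peaks within 5 kb either side of the start, in kb of about 10 kb, in arid4b-delta endoderm (horizontal) and mesoderm (vertical), for the 232 listed promoters marked in both lineages; each point is a gene and the line marks equal cover. Points lie on both sides of the line, with 86 higher in endoderm and 75 higher in mesoderm.

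Outside the lists, the strongest promoters of one lineage had short peaks. With no mesoderm peak within 5000 bp, the highest endoderm folds were at Gstm5, a glutathione S-transferase (chr3:107896089-107896663, 575 bp, fold 10.3), Ncbp2, a subunit of the nuclear cap-binding complex (chr16:31948185-31948869, 685 bp, 7.34), and Chac1, an enzyme that degrades glutathione (chr2:119351385-119351672, 288 bp, 7.27). Tlr9, a receptor for microbial DNA (407 bp, 6.87), Armc2 (152 bp, 6.75), Ythdc1, a reader of methylated RNA (398 bp, 6.68), the neighbours Gemin6 and Srsf7, a splicing factor, under a shared peak (488 bp, 6.55), and Evc and Evc2, ciliary proteins of Hedgehog signalling, under another (315 bp, 6.39), completed the 10. The nearest mesoderm peak lay between 13038 bp (Ncbp2) and 2081667 bp (Ythdc1) away. Ythdc1, Srsf7, Gemin6 and Ncbp2 carried H3K27ac in the same endoderm cells.

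The matching mesoderm genes were Trp53i11, induced by p53 (chr2:93186428-93186930, 503 bp, fold 9.36), Pmepa1, a feedback inhibitor of TGF-beta signalling (chr2:173276955-173277223, 269 bp, 7.74), and Chga, or chromogranin A of secretory granules (chr12:102554109-102555045, 937 bp, 7.23). Prex1, an exchange factor for Rac (363 bp, 6.56), Tomm34 (462 bp), Zfp385c (150 bp, 6.15), Slc5a7, the choline transporter of nerve endings (726 bp, 6.09), Defb19, a defensin (421 bp, 5.97), Tmem64 (524 bp, 5.81) and Cmtm8 (2277 bp, 5.80) followed. The nearest endoderm peak lay between 13418 bp (Zfp385c) and 185967 bp (Slc5a7) away. Pmepa1, Tomm34, Tmem64 and Cmtm8 carried H3K27ac in the same mesoderm cells. In neither lineage did these 10 include a gene of the developmental lists. Listed genes are only 377 of the 21887, and 10 of the 685 endoderm-only and 8 of the 496 mesoderm-only promoters. Their absence among 10 genes is therefore no result about them.

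The longest one-lineage peaks over promoters were much longer in endoderm. They were at Tbx20 (15441 bp), Bmper, a BMP-binding secreted protein (6062 bp, fold 2.07), Sox7 (5746 bp), Adamts8, a metalloproteinase (5408 bp, 2.60), and Pde4a, a cAMP phosphodiesterase (4725 bp, 1.95). All but Sox7 lay in the sparse start of chromosome 9, where H3K4me3 was present at the 4 starts in mesoderm. In mesoderm the longest were at Ldlrad4, an inhibitor of TGF-beta signalling (2498 bp, fold 2.34), Cmtm8 (2277 bp), Dusp14 (2002 bp, 1.56), Jun, a subunit of AP-1 (1890 bp, 2.46), and Mcur1, a regulator of mitochondrial calcium uptake (1840 bp, 4.91). Jun carried H3K27ac in both lineages, with folds of 16.0 in endoderm and 21.2 in mesoderm.

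In the full lists the other marks lay at close shares of endoderm-only and mesoderm-only promoters. H3K4me3 lay at 66.0% of endoderm-only promoters in endoderm and 69.1% in mesoderm, and at 68.3% and 73.0% of mesoderm-only promoters. Promoters marked in both had it at 85.6% and 88.9%. H3K27ac lay at 22.2% of endoderm-only promoters in endoderm and 27.4% in mesoderm, and at 20.2% and 26.2% of mesoderm-only promoters. Shared promoters had H3K27ac at 6.24% in endoderm and 8.14% in mesoderm, and unmarked promoters at 29.4% and 35.0%. At equal length the classes parted, with H3K27ac at 21.1% of endoderm-only promoters in endoderm and 27.4% in mesoderm, and at 13.2% and 15.8% of mesoderm-only ones, most of which are marked in both full lists.

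Differences in H3K27ac between the lineages were counted at the same promoters. Of endoderm-only promoters whose acetylation differed, 25 were acetylated in endoderm only and 61 in mesoderm only, an endoderm share of 29.1% (19.8 to 39.9). Of mesoderm-only promoters 13 were acetylated in endoderm only and 43 in mesoderm only, a share of 23.2% (13.0 to 36.4). Over all promoters the share was 23.8% (22.0 to 25.7). In both classes, as over all promoters, more of the differing promoters were acetylated in mesoderm only.

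In the full lists WT cells had the mark at a minority of these promoters. In either WT lineage no peak was found at 488 (71.2%) of endoderm-only and 366 (73.8%) of mesoderm-only promoters, against 432 (14.7%) of the shared ones. Of endoderm-only promoters 23.9% (20.8 to 27.3) were marked in WT endoderm and 7.45% (5.59 to 9.67) in WT mesoderm. Of mesoderm-only promoters 99 of 496 were marked in WT endoderm and 11.9% (9.18 to 15.1) in WT mesoderm. At equal length 25.3% of endoderm-only promoters were marked in WT endoderm and 7.26% in WT mesoderm, against 59.7% and 40.7% of mesoderm-only ones. The cut had moved 963 shared promoters into the 1459 of mesoderm only. Shared promoters of the full lists were marked at 82.9% in WT endoderm and 59.2% in WT mesoderm. With a -log10 q of at least 2 in both lists, 56.6% of endoderm-only promoters were marked in WT endoderm and 32.8% in WT mesoderm, and 62.7% and 42.3% of mesoderm-only ones. WT endoderm had 10326 peaks and WT mesoderm 6150, the shortest H3K27me3 list, and depth and lineage cannot be told apart there.

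Among promoters that differed between the WT lineages, the endoderm share was 81.6% (75.1 to 87.0) in the endoderm-only class, 69.6% (59.7 to 78.3) in the mesoderm-only class and 91.6% (89.5 to 93.4) in the shared class. Over all promoters it was 85.7% (83.8 to 87.4), against 58.0% between the arid4b-delta lineages, with list lengths that differ between the genotypes. WT carried the mark in the same single lineage at 146 of the 685 endoderm-only and 31 of the 496 mesoderm-only promoters. It carried the mark in the opposite single lineage at 33 of the endoderm-only and 71 of the mesoderm-only promoters. Over all 21887 promoters, 1290 were marked in WT endoderm only and 216 in WT mesoderm only.

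**Figure D5:**
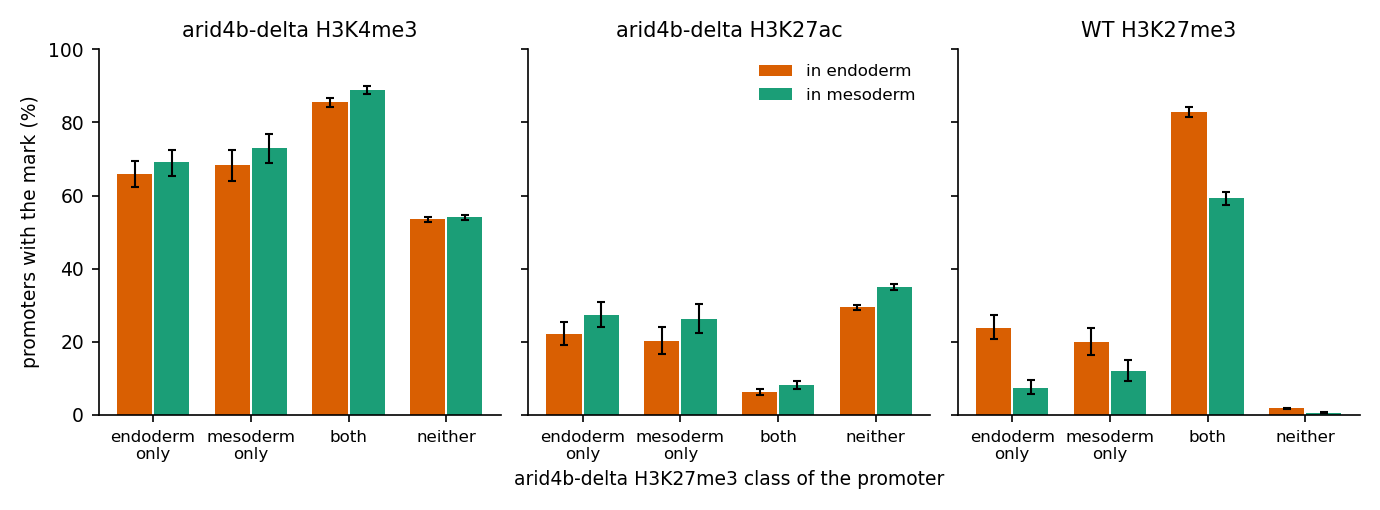
Share of promoters (percent, with 95% Clopper-Pearson intervals for counting error) with H3K4me3 and H3K27ac in arid4b-delta cells and with H3K27me3 in WT cells, in endoderm and in mesoderm, by the H3K27me3 class of the promoter in the full arid4b-delta lists. In these lists the endoderm-only and mesoderm-only classes lie close to each other, which they do not at equal length (25.3% and 59.7% for WT endoderm H3K27me3), and WT H3K27me3 is at 82.9% of shared promoters in endoderm and 59.2% in mesoderm.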

How the data were processed

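ChIP-seq peak lists of 12 libraries were used; the 4 input DNA samples were not. Bowtie2, Picard and MACS2 and build mm10 are named in the authors' data, per the submitters' processing notes; versions and settings are not given in the sources used here. H3K27me3 came as broad peaks, H3K4me3 and H3K27ac as narrow peaks, each list for 1 library. In the deposited lists column 5 is the score of the authors' peak caller, column 7 the authors' fold enrichment (a ratio to background), columns 8 and 9 the -log10 of the authors' p and q, and column 10 of the narrow lists the deposited summit offset in bp. Scores, -log10 p values and summits were not used.

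Peaks were joined to 21887 protein-coding genes of chromosomes 1 to 19, X and Y in RefSeq build GRCm38.p6, which is mm10, with Python 3.11.15, pandas 2.3.3, numpy 2.4.6, scipy 1.17.1 and matplotlib 3.10.9. The gene table has no strand, so the start was the gene end with more H3K4me3 coverage within 1000 bp over the 4 H3K4me3 lists (13145 genes), and both ends otherwise (8742 genes); exons and introns are not annotated in it. An overlap of at least 1 bp made a peak shared, and the overlap code was tested on simulated data. With 1 library per group no test was possible. Depth is unknown, and shares carry exact Clopper-Pearson 95% intervals.

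The comparison, its members, the 21 gene lists (400 entries, 377 genes, all matched) and the named genes were chosen with earlier results of these data known. Named were, per lineage, up to 20 listed genes in one lineage only whose peak is within the equal-length list, the 10 with the highest fold and no peak of the other lineage within 5000 bp, the 5 under the longest one-lineage peaks, and Arid4b with 14 lineage and pluripotency genes. No gene of the first kind had its promoter sequence inside its peak, so the sequences of Dock1, Rab15, Dusp14 and Nkain1 were chosen after their values were seen. Other listed genes were named as examples after their values were seen. Some genes named by this rule are counted but not reported here. The alternatives were equal length by fold, by -log10 q or by covered bp, -log10 q of at least 2, the upper 50% by fold, peaks of at least 500 bp, peaks joined over 1000 bp, a promoter window of 500 or of 2500 bp, a window with 500 bp or more under peaks, starts from the RefSeq promoter table, 50% of a peak covered, a peak within 1000 bp, and chromosomes 1 to 19. Leaving out the start of chromosome 9 was added after seeing the data.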

Additional observations from a re-analysis of the deposited data

How the results depend on the processing

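The direction of the promoter difference rests on list length and threshold. The endoderm share of differing promoters, 58.0% in the full lists, turned to 22.6% at equal length by fold (427 endoderm-only and 1459 mesoderm-only promoters), 23.0% at equal length by -log10 q (424 and 1418), 30.8% at equal covered bp (1120 mesoderm-only) and 45.9% at a -log10 q of at least 2 (919 mesoderm-only), against 685 and 496 in the full lists. It stayed above 50% at 54.1% with a window of 500 bp, 61.5% with 2500 bp, 55.4% in the upper 50% by fold (754 mesoderm-only) and 57.2% without the start of chromosome 9. Listed genes in endoderm only and mesoderm only, 10 and 8 in the full lists, were 5 and 56 at equal length by fold, 4 and 48 by -log10 q, 36 mesoderm-only at equal bp, 26 and 34 at -log10 q of at least 2, and 36 and 25 in the upper 50%. Peaks in endoderm only and mesoderm only, 65.1% and 38.7%, were 62.6% and 60.6% at equal length by fold, 61.5% and 59.3% by -log10 q, 62.4% and 53.3% at equal bp, 72.7% and 59.6% at -log10 q of at least 2, 76.5% and 59.2% in the upper 50%, 50.8% and 27.2% at 500 bp or more, 72.6% and 48.4% with 50% of the peak covered, and 57.9% and 28.8% with a peak within 1000 bp. Covered bp, 37.4% and 21.1%, were 42.2% in mesoderm at equal length by fold, 32.0% and 39.6% by -log10 q, 33.6% in mesoderm at equal bp, 45.5% and 40.6% at -log10 q of at least 2, 52.4% and 38.3% in the upper 50%, and 32.2% in endoderm at 500 bp or more. WT endoderm H3K27me3, at 23.9% of endoderm-only promoters in the full lists, was at 25.3% of endoderm-only and 59.7% of mesoderm-only ones at equal length by fold, and at 56.6% and 62.7% at -log10 q of at least 2. The equal-length lists remove endoderm peaks only, by construction; the cause of the other changes was not tested. No paired analysis was possible because each group is 1 library and no result comes from a test. Counting intervals leave out the spread between cultures, and unknown depth limits every absence of a peak.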

Other observations

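H3K27me3 peaks were spread unevenly over chromosomes in both lineages. Chromosome 8 held the most peaks, 1317 in endoderm (7.91% of the list) and 933 in mesoderm (9.46%), and 67.0% and 50.9% of them were in one lineage only. Chromosome 14 held 6.47% of the endoderm and 4.83% of the mesoderm list, against 6.47% of the WT endoderm and 7.93% of the WT mesoderm list. On chromosome 14, 77.4% of endoderm peaks and 47.5% of mesoderm peaks were in one lineage only, and on chromosome X 76.8% and 32.1%. The fourth longest endoderm peak, 87818 bp on chromosome 8, matched a mesoderm peak of 87751 bp there, and no start of a protein-coding gene lay inside either. These values were seen after the comparisons were made and were not tested.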
